A study of Homo sapiens with 95 samples.

Results

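The response of AALE cells to cigarette smoke condensate was measured in the population that carried only a control plasmid. AALE is an immortalized line of human bronchial epithelial cells. The control population had received the PX458 plasmid, which encodes Cas9 and EGFP, with no guide RNA, and is called GFP after its reporter. It served as the control for the CRISPR knockout populations, so that Cas9 and EGFP are shared by treated and untreated wells and no gene was targeted. The comparison took 6 of the 95 wells of the series, namely 3 GFP wells under cigarette smoke condensate (CSC, 24 µg/ml) and 3 GFP wells under the DMSO vehicle, chosen by their titles. The exposure time and whether the line or the transfected population was a clone were not given in the sources used here. The study calls the wells of a group biological replicates. Whether they were grown apart before plating was not given in the sources used here. The p-values rest on the spread between these wells together with a variance shared between genes. Every CSC well lay in 1 row of the labelled plate and every DMSO well in another, in the same 3 columns, so the chemical and the plate row cannot be told apart. The study exposed the cells in 24-well plates, while the labels number plate columns up to 12. Rows and columns here are thus those of the labels, and the layout of the cultures was not given in the sources used here.

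CSC is the particulate part of tobacco smoke taken up in DMSO, and it contains polycyclic aromatic hydrocarbons, quinones and other reactive compounds. Airway epithelial cells are known to respond to these classes of compound through a pair of transcription factors. The aryl hydrocarbon receptor (AHR) binds planar aromatic ligands in the cytoplasm, enters the nucleus, pairs with ARNT and acts at short DNA motifs with the core GCGTG near genes of xenobiotic metabolism, CYP1A1 and CYP1B1 above all. NRF2 is held at a low level by KEAP1 until electrophiles or oxidants modify KEAP1, and then acts at antioxidant response elements near genes for quinone reduction, thioredoxin and glutathione metabolism and iron storage, of which NQO1 is the textbook example.

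Expression was counted by 3′ digital gene expression (3′DGE), in which every RNA molecule captured at its 3′ end carries a unique molecular identifier (UMI) and is counted once. Total counts per well were 893754 to 1114115 under CSC and 1191511 to 1364142 under DMSO, so that every CSC well was shallower than every DMSO well. Of the symbols listed, 47.1 to 48.6% were detected in the CSC wells and 48.7 to 50.2% in the DMSO wells. The 6 markers of basal bronchial epithelium were all detected, among them KRT5 at 175 to 388 counts and TP63 at 16 to 37 counts per well. No marker of fibroblasts, endothelium, secretory or ciliated airway cells had a mean count above 1, and COL1A1, DCN and PECAM1 held 6 counts each over the 6 wells. Of the blood and alveolar markers 1 each passed that filter, LYZ with 21 and SFTPB with 7 counts over the 6 wells, while SCGB1A1, MUC5B and FOXJ1 were at 0 in all 6 wells.

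A total of 10744 genes with a mean count above 1 were compared by LIMMA with voom weights, and 139 of them (1.29%) had an adjusted p-value under 0.05, the threshold used throughout. Of these, 64 genes (0.596% of those tested) were higher under CSC and 75 (0.698%) were lower. Folds are given on the log2 scale as CSC minus DMSO with the standard error (SE) of the fit, and levels as CPM, which sets each count relative to the total of its well after TMM scaling. The sizes were unequal in the 2 directions. The median was 0.72 over the higher calls and -0.16 over the lower calls, 24 higher genes reached a log2 fold change of 1, and KRT14 and TXNIP were the 2 lower genes whose fall was that large. The median over all genes tested was -0.0075. The number of calls fell to 83 without CSC replicate 3, the shallowest well, and to 91 without CSC replicate 1, and DESeq2 without its independent filtering called 28 higher and 19 lower genes. In 132 of the 139 genes every CSC well lay on 1 side of every DMSO well, against 14.4% of all genes tested. The calls were made from the same wells, so this is a description and not a separate test. The same holds wherever lack of overlap is given for a called gene below. With 3 wells against 3, an exact permutation test of a single gene cannot go below p = 0.1, and the adjusted p-values rest on the variance shared between genes. In bulk RNA, fewer cells of a type and less RNA per cell cannot be told apart.

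**Figure D1:**
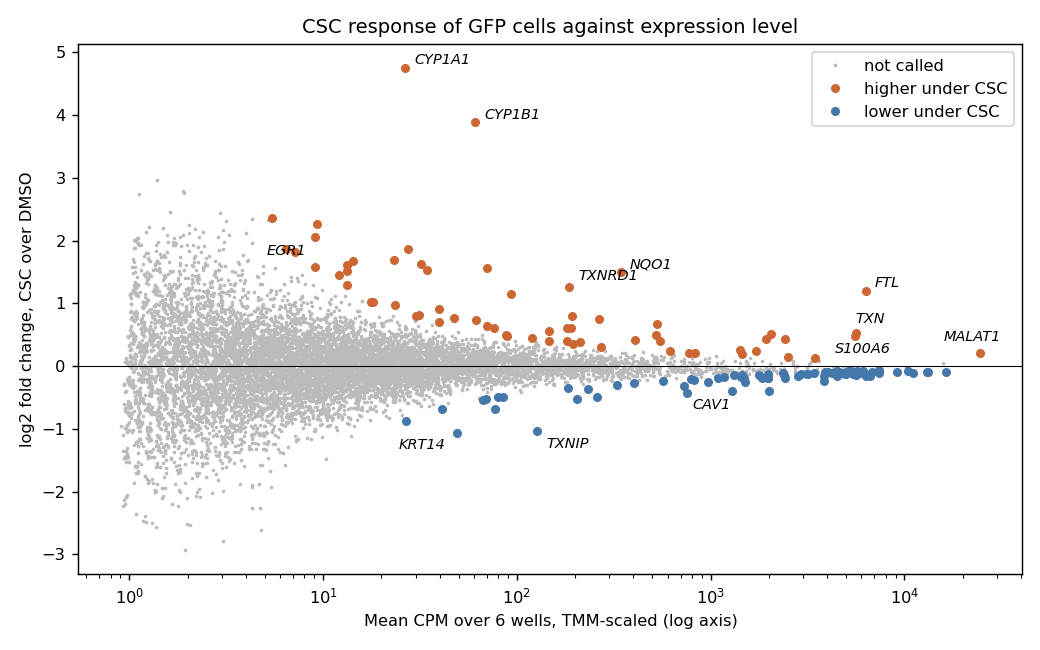
Each point is a gene tested in GFP cells, with the mean CPM of the 6 wells on the x axis (log scale) and the log2 fold change of CSC against DMSO on the y axis. Genes called higher and lower are coloured, and the lower calls sit mostly at high mean level with small changes (median -0.16) while the higher calls reach 4.75 (CYP1A1).

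The 250 bases before the start of 5 of the genes that rose are shown to let the short motifs named above be seen in place. They are RefSeq promoters on GRCh38.p14, printed 5′ to 3′ on the strand of the gene. Capitals mark the AHR core GCGTG or the antioxidant response core TGACNNNGC, each read on both strands. CYP1A1 (chr15:74725529-74725778, minus strand) has 1 GCGTG core at -57 from the start, and TIPARP (chr3:156674340-156674589, plus strand) has 2. TXNRD1 (chr12:104215529-104215778, plus strand) has 1 antioxidant core at -99, GPX2 (chr14:64942746-64942995, minus strand) has 1 at -122, and NQO1 (chr16:69726561-69726810, minus strand) has neither motif in this window.
CYP1A1: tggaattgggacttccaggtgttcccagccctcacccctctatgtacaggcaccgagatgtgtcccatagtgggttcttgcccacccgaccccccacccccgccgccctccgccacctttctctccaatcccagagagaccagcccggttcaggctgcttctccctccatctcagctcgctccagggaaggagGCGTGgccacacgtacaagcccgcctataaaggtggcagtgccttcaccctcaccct
TIPARP: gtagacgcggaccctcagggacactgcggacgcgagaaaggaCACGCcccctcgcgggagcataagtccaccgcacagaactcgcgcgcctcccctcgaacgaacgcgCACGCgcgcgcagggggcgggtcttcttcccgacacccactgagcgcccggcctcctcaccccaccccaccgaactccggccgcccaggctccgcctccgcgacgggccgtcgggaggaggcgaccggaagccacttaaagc
TXNRD1: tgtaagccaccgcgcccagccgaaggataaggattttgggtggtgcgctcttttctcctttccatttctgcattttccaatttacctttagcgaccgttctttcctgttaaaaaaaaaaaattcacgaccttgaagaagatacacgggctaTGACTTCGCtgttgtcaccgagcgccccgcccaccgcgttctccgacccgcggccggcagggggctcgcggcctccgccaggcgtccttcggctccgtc
GPX2: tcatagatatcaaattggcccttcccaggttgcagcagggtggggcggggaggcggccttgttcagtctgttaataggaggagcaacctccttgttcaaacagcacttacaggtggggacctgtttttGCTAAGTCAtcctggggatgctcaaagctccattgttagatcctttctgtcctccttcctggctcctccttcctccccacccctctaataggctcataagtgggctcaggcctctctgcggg
NQO1: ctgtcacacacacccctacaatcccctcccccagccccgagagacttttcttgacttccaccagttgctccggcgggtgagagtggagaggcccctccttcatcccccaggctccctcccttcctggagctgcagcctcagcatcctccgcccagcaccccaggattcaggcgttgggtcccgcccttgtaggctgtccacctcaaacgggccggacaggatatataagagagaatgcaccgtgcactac
The GCGTG core was present in 31.9% of all 27303 promoters of this length, in 46.8% of the 8047 promoters that matched a tested gene, in 37.5% of the 48 matched for higher genes and in 50% of the 54 matched for lower genes. The antioxidant core was present in 11%, 12.2%, 16.7% and 5.56% of the same sets. These are descriptions of letters in a short window, and they do not follow the lists. FTL and TXN have GCGTG cores too (2 and 6), and FTL, TXN, AKR1C1, SQSTM1 and PIR have no antioxidant core in the window. CYP1B1, FTH1 and PRDX1 were not matched.

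Of the 11 listed genes of the AHR battery, 8 were tested and 4 rose: CYP1A1, CYP1B1, TIPARP and ALDH1A3. No member fell, and the median over the 8 was 1.61. Over all 10744 genes tested 0.596% were called higher and 0.698% lower, with 5271 positive and 5473 negative fold changes. These are the shares against which every list here stands. The lists were chosen with earlier results of these data known, so their counts are descriptions and not tests. CYP1A1 (chr15:75011883-75017877 on hg19, minus strand), a cytochrome P450 that oxidizes polycyclic aromatic hydrocarbons, was counted 62, 49 and 49 times in the CSC wells and 2, 1 and 3 times in the DMSO wells. In CPM these were 55.4, 45.2 and 53.9 under CSC against 1.71, 0.83 and 2.22 under DMSO. The gene went from a few molecules a well to at least 49, and the log2 fold change of 4.75 (SE 0.54, adjusted p = 1.65e-09) rests on a small denominator.

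CYP1B1 (chr2:38294116-38337044 on hg19, minus strand), the related P450 of extrahepatic epithelia, stood at 102, 112 and 131 CPM in the CSC wells and at 10.2, 6.64 and 5.92 CPM in the DMSO wells. Every CSC well lay far above every DMSO well, and the log2 fold change was 3.88 (SE 0.28, adjusted p = 8.46e-17). TIPARP encodes an ADP-ribosyltransferase that feeds back on AHR. Its levels were 50.0, 42.5 and 36.3 CPM under CSC and 10.2, 9.13 and 15.5 CPM under DMSO (log2 fold change 1.87, SE 0.25, adjusted p = 3.21e-07). ALDH1A3, which oxidizes retinaldehyde to retinoic acid, was at 23.2, 20.3 and 20.9 CPM against 5.97, 10.8 and 4.44 CPM (log2 fold change 1.67, SE 0.33, adjusted p = 0.000763). The groups of wells did not overlap for any of the 4 genes. ALDH1A3 lost its call by DESeq2 without its independent filtering (adjusted p = 0.0956).

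The other 4 tested members did not pass. ALDH3A1 averaged 8.06 ± 1.39 CPM under CSC and 3.24 ± 3.02 CPM under DMSO (mean ± SD, n = 3; log2 fold change 1.56, adjusted p = 0.193). CYP2S1 had a log2 fold change of 1.19 (adjusted p = 0.743) at low counts. The receptor itself, AHR, averaged 9.27 ± 1.27 CPM under CSC and 13.2 ± 6.10 CPM under DMSO, with a log2 fold change of -0.33 (adjusted p = 0.849). Its partner ARNT had a log2 fold change of -0.01 (adjusted p = 0.997). A change in the RNA of the receptor or its partner was thus not detectable at this depth, while 4 other members of the list were higher. The activity of the receptor was not tested.

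Among the 33 listed NRF2 targets, 31 were tested, 10 rose and none fell, 25 had a positive fold change, and the median was 0.39. The share called higher over all genes tested was 0.596%, and 5271 of 10744 had a positive fold change. The 10 were NQO1, TXNRD1, TXN, PRDX1, GPX2, AKR1C1, AKR1C3, FTL, FTH1 and SQSTM1, and the wells of the 2 groups did not overlap in any of them. Summed over the tested members, the list held 20309 to 20740 CPM in the CSC wells and 11790 to 12235 CPM in the DMSO wells, and FTL and TXN made up most of that gap.

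NQO1 (chr16:69740899-69760571 on hg19, minus strand) reduces quinones to hydroquinones and so bypasses the reactive semiquinone. It was at 523, 509.6 and 490.3 CPM under CSC and at 169.7, 198 and 171 CPM under DMSO, a log2 difference of 1.50 (SE 0.08, adjusted p = 8.91e-23). The spread inside each group was a small fraction of the gap. GPX2, a selenium-dependent glutathione peroxidase of epithelia, was at 29.5, 36.9 and 40.7 CPM against 13.6, 9.13 and 9.62 CPM (log2 fold change 1.70, SE 0.26, adjusted p = 8.26e-06). Thioredoxin, a protein disulfide reductant, moved together with the enzyme that reduces it and with a peroxidase that it recharges. TXNRD1, the reductase, was at 275, 254 and 257 CPM against 105, 112 and 110.3 CPM (log2 fold change 1.26, SE 0.10, adjusted p = 1.73e-15). TXN was at 6462, 6538 and 6582 CPM against 4602, 4675 and 4688 CPM (log2 fold change 0.49, SE 0.02, adjusted p = 8.13e-31). PRDX1, the peroxiredoxin, was at 2797, 2817 and 2742 CPM against 2059, 2038 and 2094 CPM (log2 fold change 0.43, SE 0.03, adjusted p = 1.6e-17). The groups of wells did not overlap for any of the 3 genes, and the reductase had the largest fold of them.

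The aldo-keto reductases AKR1C1 and AKR1C3 reduce ketones and aldehydes, including those of steroids and prostaglandins. AKR1C3 was at 47.3, 47.1 and 60.5 CPM under CSC and 13.6, 18.3 and 20.7 CPM under DMSO (log2 fold change 1.52, SE 0.22, adjusted p = 9.35e-07). AKR1C1 was at 16.1, 12 and 17.6 CPM against 5.97, 1.66 and 2.22 CPM (log2 fold change 2.27, SE 0.46, adjusted p = 0.00099). The AKR1C genes are close copies of each other, so the split of counts among them is uncertain, and AKR1C1 lost its call by DESeq2 without its independent filtering (adjusted p = 0.0634). AKR1C2 had a log2 fold change of 0.14 and AKR1B10 one of -0.07, and neither passed. SQSTM1, the autophagy receptor p62, was at 20.5, 36 and 38.5 CPM against 11.9, 18.3 and 15.5 CPM (log2 fold change 0.98, SE 0.25, adjusted p = 0.0278). Its call was lost without any 1 of 4 wells, CSC replicate 2, CSC replicate 3, DMSO replicate 1 or DMSO replicate 3, with an adjusted p of up to 0.235. PIR, a nuclear iron-binding protein, and PTGR1, an alkenal reductase, were outside the list and were picked after their values were seen. PIR had a log2 fold change of 1.14 (SE 0.13) and PTGR1 one of 0.50 (SE 0.07), and both passed.

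Several textbook NRF2 genes did not pass. GCLM, the modifier subunit of glutamate-cysteine ligase, averaged 16.6 ± 4.38 CPM under CSC and 8.02 ± 1.93 CPM under DMSO (n = 3 each), and its wells did not overlap. The log2 fold change was 1.02 (adjusted p = 0.146). GCLC, the catalytic subunit, had 0.69 (adjusted p = 0.265), SRXN1 had 0.65 (adjusted p = 0.51), and the cystine transporter SLC7A11 had 0.30 (adjusted p = 0.64). The fold of GCLM was larger than that of GSTM3, a glutathione transferase that passed (0.75, at 333 CPM under CSC and 197 CPM under DMSO). A difference between genes of glutathione synthesis and of its use was not tested, and none is drawn from which of them passed.

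Of 12 tested glutathione transferases of 18 listed, GSTM3 and MGST1 rose, and none fell. GSTM3 was at 309.9, 364 and 324 CPM against 192, 189 and 209 CPM (log2 fold change 0.75, SE 0.08, adjusted p = 1.11e-09). MGST1, the microsomal enzyme, was at 2365, 2420.5 and 2427 CPM against 1634, 1670.0 and 1732 CPM (log2 fold change 0.52, SE 0.03, adjusted p = 1.15e-18). The median of the family was 0.01, and GSTP1 had a log2 fold change of 0.08 (adjusted p = 0.589). The 2 calls were therefore single members of a family that otherwise did not pass.

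Both chains of ferritin, the shell that stores iron, rose. FTL (chr19:49468566-49470136 on hg19, plus strand), the light chain, was at 8704, 8908 and 8768 CPM in the CSC wells and at 3982, 3538 and 3982 CPM in the DMSO wells, and had the smallest adjusted p of all genes tested (log2 fold change 1.20, adjusted p = 3.17e-47). The SE given by the fit was 0.0218, and the SE taken from the 6 wells alone was 0.0577, which still leaves the fold at many SEs. FTH1, the heavy chain, which carries the ferroxidase activity, was at 607, 719 and 623 CPM against 408, 416 and 405 CPM (log2 fold change 0.66, SE 0.07, adjusted p = 1.62e-11). Both ferritin genes have many processed copies in the genome, so their absolute levels are uncertain. The transferrin receptor TFRC had a log2 fold change of 0.21 (adjusted p = 0.849), and the ferritin genes were the 2 calls among 15 tested of 20 listed genes of iron handling.

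**Figure D2:**
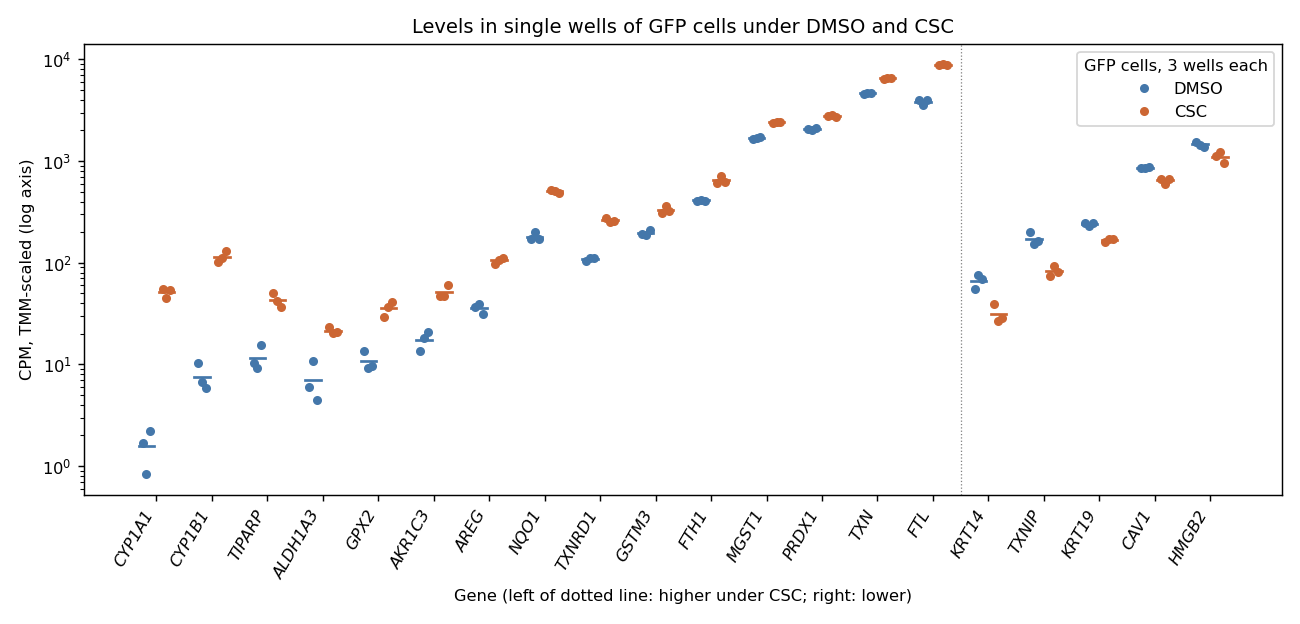
CPM after TMM scaling (log axis) of 20 named genes in each of the 6 GFP wells, DMSO in blue and CSC in orange, with lines at the group means. In every gene shown the CSC wells lie on 1 side of the DMSO wells, from CYP1A1 at 0.83 to 2.22 CPM under DMSO to FTL at 3538 to 3982 CPM. Lack of overlap was part of the rule by which many of these genes were named.

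Genes of early signalling followed. Among 17 tested immediate early genes of 22 listed, EGR1 and DUSP1 rose, 15 had a positive fold change, and the median was 0.54. The share called higher over all genes tested was 0.596%, and 5271 of 10744 had a positive fold change. EGR1, a zinc finger transcription factor induced within minutes by growth signals, was at 22.3, 12.9 and 9.89 CPM under CSC and 3.41, 3.32 and 2.96 CPM under DMSO (log2 fold change 2.06, SE 0.44, adjusted p = 0.00271). CSC replicate 1 was the highest well, and without it the adjusted p was 0.0689. DUSP1, a phosphatase that switches off MAP kinases, was at 19.6, 17.5 and 23.1 CPM against 7.67, 7.47 and 4.44 CPM (log2 fold change 1.61, SE 0.33, adjusted p = 0.00158), and lost its call by DESeq2 without its independent filtering (adjusted p = 0.115). FOS and FOSL1, subunits of AP-1, had log2 fold changes of 2.08 (adjusted p = 0.221) and 2.34 (adjusted p = 0.0794) at a few CPM.

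AREG encodes amphiregulin, a ligand of the EGF receptor. It was at 98.2, 107 and 111 CPM in the CSC wells and 36.7, 39 and 31.1 CPM in the DMSO wells, with no overlap (log2 fold change 1.56, SE 0.15, adjusted p = 1.7e-11). It was the only one of 16 tested genes of ERK feedback and EGF receptor ligands that passed. DUSP6, a feedback phosphatase of ERK, had a log2 fold change of 2.33 (adjusted p = 0.0507), and the ligands EREG and HBEGF had 0.05 (adjusted p = 0.986) and 0.68 (adjusted p = 0.871).

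SERPINB2, the plasminogen activator inhibitor PAI-2, was at 58.9, 46.2 and 39.6 CPM under CSC and 9.38, 20.7 and 17.8 CPM under DMSO (log2 fold change 1.63, SE 0.24, adjusted p = 1.98e-06). IL1B, an inflammatory cytokine, was at 22.3, 16.6 and 19.8 CPM against 6.82, 4.15 and 9.62 CPM (log2 fold change 1.51, SE 0.34, adjusted p = 0.00431). BIRC3, an inhibitor of apoptosis controlled by NF-kB, was at 29.5, 16.6 and 27.5 CPM against 11.1, 13.3 and 10.4 CPM (log2 fold change 1.02, SE 0.28, adjusted p = 0.0421). Of these, IL1B lost its call without CSC replicate 1 (adjusted p = 0.0522) or DMSO replicate 2 (0.0906), and BIRC3 lost its call in 5 of the 6 comparisons that left out 1 well, with adjusted p up to 0.384 (without CSC replicate 1). They were the 2 calls among 14 tested of 36 listed chemokines, cytokines and NF-kB feedback genes, most of which were too low to test. IL1A, the sister cytokine, had a log2 fold change of 1.04 (adjusted p = 0.0501), and the chemokine CCL20 had 2.44 (adjusted p = 0.153). TMEM45B, a membrane protein, had a log2 fold change of 1.58 (adjusted p = 0.0192) and lost its call without any 1 of 3 wells, CSC replicate 1, DMSO replicate 1 or DMSO replicate 3.

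The other genes that reached a log2 fold change of 1 stood outside the lists and the rule for naming genes, and were picked after their values were seen. ABCA1, which exports cholesterol, averaged 11.4 ± 4.04 CPM under CSC and 2.92 ± 0.681 CPM under DMSO (log2 fold change 1.81, adjusted p = 0.0249). AIFM2, a reductase that protects membrane lipids from oxidation, averaged 10.0 ± 1.48 CPM and 2.84 ± 2.19 CPM (log2 fold change 1.87, adjusted p = 0.0437). ACRC had a log2 fold change of 2.36, GPR110 of 1.45, SLAMF9 of 1.29 and AMN1 of 1.02. All 6 were low in count, and each lost its call when any 1 of at least 3 wells was left out, with adjusted p up to 0.333 (AIFM2 without DMSO replicate 1). ABCA1 was also called higher in all 4 other populations described below, and ACRC, AIFM2, GPR110, SLAMF9 and AMN1 in none of them. SRSF5, a splicing factor, stood at 253, 224 and 258 CPM under CSC and 144, 137 and 138 CPM under DMSO (log2 fold change 0.80, SE 0.09, adjusted p = 4.28e-09), and was also picked after its values were seen.

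KRT14 had the largest fall of all genes tested that passed. Of 16 listed keratins 12 were tested, KRT14, KRT19 and KRT5 fell, KRT17 rose, and the median was -0.38. The share called in either direction over all genes tested was 1.29%. KRT14 (chr17:39738531-39743147 on hg19, minus strand), the basal cell partner of KRT5 in intermediate filaments, was at 39.3, 26.8 and 28.6 CPM under CSC and 54.6, 75.5 and 68.9 CPM under DMSO (log2 fold change -1.06, SE 0.18, adjusted p = 7.08e-05). KRT19, a keratin of simple and less differentiated epithelium, was at 159, 172 and 170.4 CPM against 246, 228 and 244 CPM (log2 fold change -0.52, SE 0.09, adjusted p = 8.04e-05). Neither gene's groups overlapped. KRT5 was at 189, 224 and 192 CPM against 231, 322 and 239.9 CPM (log2 fold change -0.37, adjusted p = 0.0309), and its call was lost without CSC replicate 1 (0.229), CSC replicate 3 (0.281) or DMSO replicate 2 (0.501), the last being the well with the highest level. KRT17, a keratin of stressed and basal epithelium, was at 226, 267 and 226 CPM against 179.9, 178 and 195 CPM (log2 fold change 0.38, adjusted p = 0.0126), and its call was lost without CSC replicate 2 (0.258), DMSO replicate 1 (0.0595) or DMSO replicate 2 (0.0757). KRT6A, at 165 ± 16.9 CPM under CSC and 173 ± 18.1 CPM under DMSO, had a log2 fold change of -0.06 (adjusted p = 0.91). Of 22 tested genes of squamous and epithelial identity, 17 had a negative fold change and none passed, by LIMMA or by edgeR. In 3 of them the unadjusted p was under 0.05, against 975 of all 10744 genes tested.

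TXNIP (chr1:145438490-145442635 on hg19, plus strand) binds and inhibits thioredoxin and holds back glucose uptake. It was at 74.1, 93.2 and 81.3 CPM in the CSC wells and 199, 154 and 163 CPM in the DMSO wells (log2 fold change -1.04, SE 0.12, adjusted p = 4.14e-09), and its groups of wells did not overlap. CAV1, the coat protein of caveolae, was at 666, 600.0 and 667 CPM against 853, 862 and 874 CPM (log2 fold change -0.43, SE 0.05, adjusted p = 6.42e-08). It was the only call among 25 tested mesenchymal, matrix and caveola genes. MFAP5, a microfibril protein outside that list, was at 62.5, 56.3 and 58.3 CPM against 90.4, 94.6 and 99.2 CPM (log2 fold change -0.68, SE 0.14, adjusted p = 0.00107), a call lost by DESeq2 without its independent filtering (adjusted p = 0.0635). CSTA, an inhibitor of cysteine proteases in squamous epithelium, fell by 0.31 (adjusted p = 0.000105).

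A few genes of the cell cycle fell by small amounts. Of 43 tested members of 44 listed, 5 fell, none rose, 40 had a negative fold change, and the median was -0.18. The share called lower over all genes tested was 0.698%, and 5473 of 10744 had a negative fold change. HMGB2, a chromatin protein of dividing cells, was at 1129, 1214 and 966 CPM under CSC and 1556, 1448 and 1380.0 CPM under DMSO (log2 fold change -0.40, SE 0.05, adjusted p = 3.68e-08). STMN1, a microtubule destabilizer, was at 876, 884 and 897 CPM against 1085, 996 and 1100.1 CPM (log2 fold change -0.26, SE 0.05, adjusted p = 0.000309). TUBA1B, a tubulin, was at 1822, 1872 and 1840.1 CPM against 2055, 2113 and 2163 CPM (log2 fold change -0.20, SE 0.03, adjusted p = 7.08e-05). These 3 genes kept their groups apart. TUBA1B was not called in a single LIMMA fit over the CSC and DMSO wells of 5 populations (adjusted p = 0.131). HMGB2 was near the threshold by DESeq2 without its independent filtering (adjusted p = 0.0472). The remaining calls, MKI67 (log2 fold change -0.50, adjusted p = 0.0429) and MCM6 of the replicative helicase (-0.69, adjusted p = 0.0441), were each lost in 5 of the 6 comparisons that left out 1 well, with adjusted p up to 0.233 for MKI67 (without DMSO replicate 1) and 0.414 for MCM6 (without CSC replicate 1). TOP2A had -0.17 (adjusted p = 0.342), CDK1 had -0.06 (adjusted p = 0.884) and PCNA had -0.07 (adjusted p = 0.664). HIST1H4C, a replication-dependent histone H4 gene outside the list, was at 1806, 1725 and 1642 CPM against 2406, 2418 and 2064 CPM (log2 fold change -0.40, SE 0.04, adjusted p = 1.42e-10). The study describes 3′DGE as a poly-A capture method, so these counts cover only polyadenylated RNA of the gene. The SE from the wells was 0.0846 for HIST1H4C and 0.109 for HMGB2, 2.03 and 2.19 times that of the fit.

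**Figure D3:**
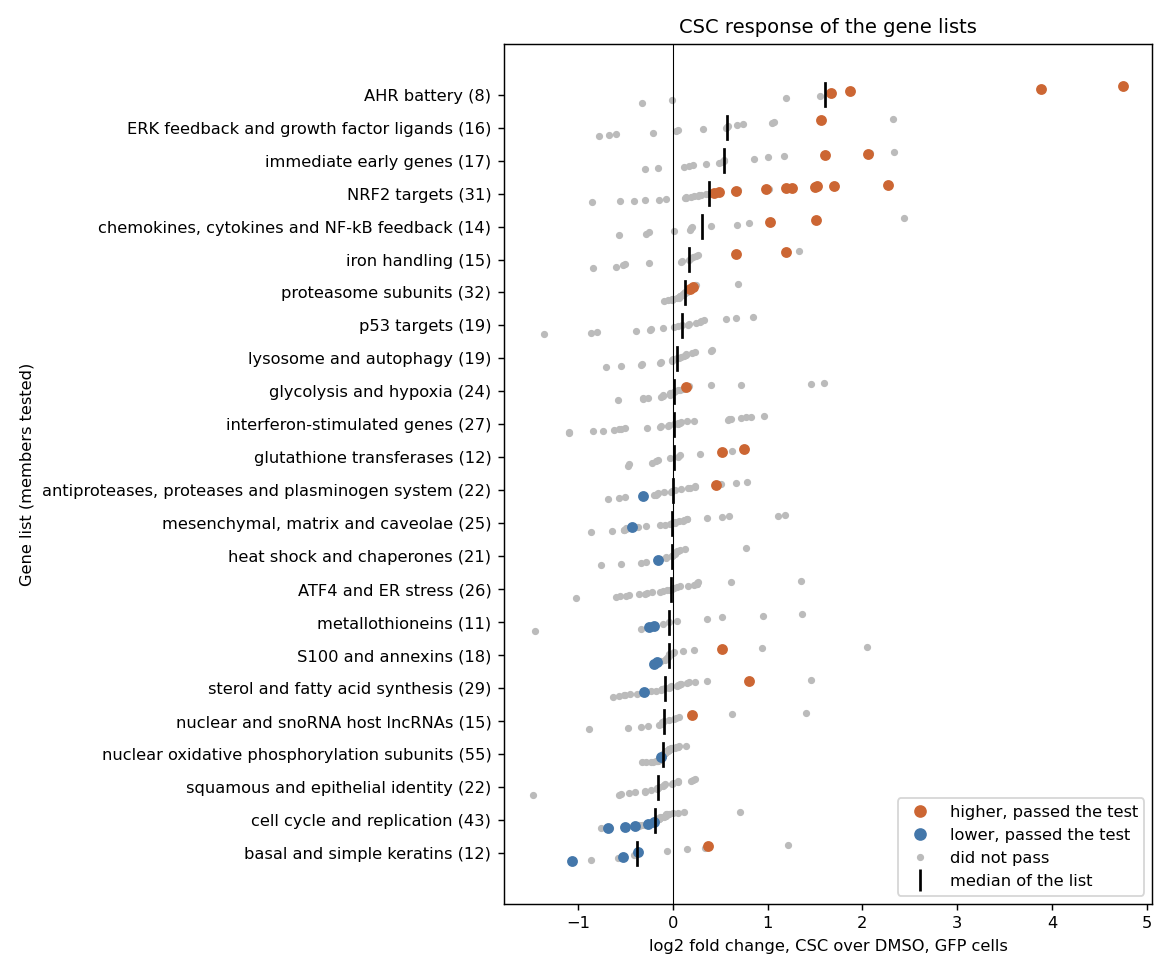
Log2 fold change (CSC against DMSO, x axis) of the tested members of 24 gene lists (rows), with members that passed in orange (higher) or blue (lower), others in grey, and a bar at the list median. The medians of the AHR battery (1.61), the ERK feedback genes and ligands (0.57) and the immediate early genes (0.54) lie furthest right, and that of the keratins (-0.38) furthest left.

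A further kind of change was small and lay in abundant genes. S100A6, a calcium-binding protein, was at 6419, 6911 and 6618 CPM under CSC against 4517, 4546 and 4817 CPM under DMSO (log2 fold change 0.52, adjusted p = 1.35e-28), with an SE from the wells 2.03 times that of the fit. It was the 1 higher call among 18 tested S100 and annexin genes, of which 2 fell, S100A10 (-0.19) and its partner annexin ANXA2 (-0.17), and 15 did not pass. TMSB4X, which binds monomeric actin, had -0.23, and TMSB10 had -0.10, the latter not called by edgeR (adjusted p = 0.218). The nuclear RNA MALAT1 had 0.20, with an SE from the wells 3.65 times that of the fit and a call lost by DESeq2 without its independent filtering (adjusted p = 0.15). Among 32 tested proteasome genes 28 had a positive fold change (median 0.13), against 5271 of all 10744 genes tested. PSMB1 (0.19) and PSMA3 (0.21) rose. PSMB1 lost its call without CSC replicate 1 (adjusted p = 0.102), and PSMA3 lost its call without any 1 of 4 wells, with adjusted p up to 0.403. The superoxide dismutase SOD1 (0.25) and the polyamine acetyltransferase SAT1 (0.40) both passed, and were picked after their values were seen.

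The genes of cytosolic ribosomal proteins, gathered after the calls were seen, made up 35 of the 75 lower calls. Of 82 tested, 77 had a negative fold change, with a median of -0.088. RPL35 had -0.16 and RPS6 had -0.11. These genes have many near-identical copies and are uncertain, and their calls depended on the tool. There were 7 by edgeR, 4 by DESeq2 without its independent filtering, and 10 in the comparison without CSC replicate 3. The SE computed from the wells exceeded that of the fit in 52 of the 75 lower calls, with a median ratio of 1.37. Among the 64 higher calls it did so in 19, with a median ratio of 0.887. The ratio also went with abundance, with a median of 1.56 over the 67 calls with a mean count of 1000 or more. It was 0.887 over the 72 calls under 1000, and 1.26 over all 196 tested genes at 1000 or more. Among 55 tested subunits of oxidative phosphorylation, 48 had a negative fold change (median -0.10), and COX7C passed with -0.12, a call lost in 5 of the 6 comparisons that left out 1 well. MT1X and MT1E, which bind zinc and copper, fell by 0.25 and 0.20, MT1E with overlapping wells and a call lost without CSC replicate 3 (adjusted p = 0.458) or DMSO replicate 2 (0.0873). MT2A, another metallothionein, had 0.05 (adjusted p = 0.314).

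Several stress programmes gave no call or 1. None of 26 genes of the ATF4 and endoplasmic reticulum response passed (3 at an unadjusted p under 0.05), and neither did any of 19 p53 targets (1), 27 interferon-stimulated genes (2) or 19 lysosome and autophagy genes (2), in LIMMA or in edgeR. Over all 10744 genes tested 1.29% were called, and 975 had an unadjusted p under 0.05. Lists of this size can hold no call at that share, so no result on these programmes is drawn from the counts. DDIT3, the CHOP factor of endoplasmic reticulum stress, had a log2 fold change of -0.36 (adjusted p = 0.382), CDKN1A, the p53-induced inhibitor of cyclin-dependent kinases, had 0.33 (adjusted p = 0.715), and MDM2 had 0.56 (adjusted p = 0.24). Among 21 chaperones HSPA8 fell by 0.15 (adjusted p = 0.0466), a call lost without any 1 of the 6 wells, and the inducible HSPA1A had 0.78 (adjusted p = 0.76). Of 24 genes of glycolysis and hypoxia ENO1 rose by 0.14, a call lost without CSC replicate 1 (adjusted p = 0.519) or CSC replicate 2 (0.115). SCD, a desaturase of fatty acid synthesis, had -0.30 (adjusted p = 0.0377) and lost its call without any 1 of 4 wells, with adjusted p up to 0.451. SERPINB1, an inhibitor of neutrophil elastase, had 0.45 (adjusted p = 0.021) and was lost without any 1 of 3 wells. Of the lower genes named by size, PABPC1, the cytoplasmic poly(A)-binding protein, was at 188, 234 and 228 CPM against 307, 309 and 295 CPM (log2 fold change -0.50, adjusted p = 6.11e-05), while FAM115A (-0.87), PHACTR3 (-0.53), SRSF6 (-0.54) and YWHAQ (-0.50) each lost their calls when any 1 of several wells was left out.

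The same exposure was given to other populations of the line, which allows the GFP response to be set beside independent wells. These were cells with the HcRed reporter, cells overexpressing NRF2 or PIK3CA, and cells in which FAT1 was knocked out, with 3 CSC and 3 DMSO wells each, on other columns of the plate. CSC was also given to 3 further populations, not used here because some or all of their CSC wells carried longer replicate numbers whose meaning the labels did not give. CSC changed 115 genes in HcRed cells (1.04% of those tested), 182 in NRF2 cells (1.62%), 159 in PIK3CA cells (1.42%) and 52 in FAT1 cells (0.457%). Of the 139 genes called in GFP cells, 62 were also called in HcRed cells, 61 of them in the same direction, which is 44.6% of the GFP calls and 53.9% of the HcRed calls. The shared genes were 90 in NRF2 cells (64.7% and 49.5%), 60 in PIK3CA cells (43.2% and 37.7%) and 28 in FAT1 cells (20.1% and 53.8%). Replicate wells were also compared in pairs by a chi-square per degree of freedom, with a median of 1.361 over all pairs. It was 1.435 to 2.614 between FAT1 wells under CSC and 1.161 to 1.343 between GFP wells under CSC or DMSO. The effect of this larger spread on the FAT1 calls was not tested. Among the 64 higher genes 18 were called the same way in all 4 other populations and 17 in none, and among the 75 lower genes 4 and 13. EGR1, IL1B and ABCA1, whose GFP calls depended on single wells, were among the 18. BIRC3, ACRC, AIFM2, GPR110, SLAMF9 and AMN1, whose GFP calls did so too, were among the 17. The CSC wells of these populations also lay in plate rows that held CSC alone, so the repeat across populations does not separate the chemical from the rows.

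Fold changes of named genes are set side by side here, and no difference between populations was tested beyond the interactions given further on. CYP1B1 had a log2 fold change of 3.88 in GFP cells and of 3.08, 3.67, 2.93 and 4.47 in HcRed, NRF2, PIK3CA and FAT1 cells. NQO1 had 1.50 and then 1.16, 1.17, 1.13 and 1.41 in the same order. FTL had 1.20 and then 1.24, 1.08, 1.32 and 0.92. CYP1A1, at low counts, ranged from 2.30 in PIK3CA cells to 5.88 in FAT1 cells. Other genes spread more widely around the GFP value. SERPINB2 had 1.63 in GFP cells and 2.45, 1.95, 2.98 and 1.52 in the others, ALDH1A3 had 1.67 and then 0.78, 0.87, 0.51 and 1.79, and TXNIP had -1.04 and then -0.58, -0.64, -0.13 and -0.89. CAV1 had -0.43 in GFP cells and -0.63, -0.95, -0.45 and -0.58. KRT5 had -0.37 and then -0.81, -0.47, -0.32 and -0.29, so that the sign was shared although the GFP call itself depended on single wells. KRT17 had 0.38 in GFP cells and 0.19, -0.02, 0.41 and -0.10 elsewhere.

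**Figure D4:**
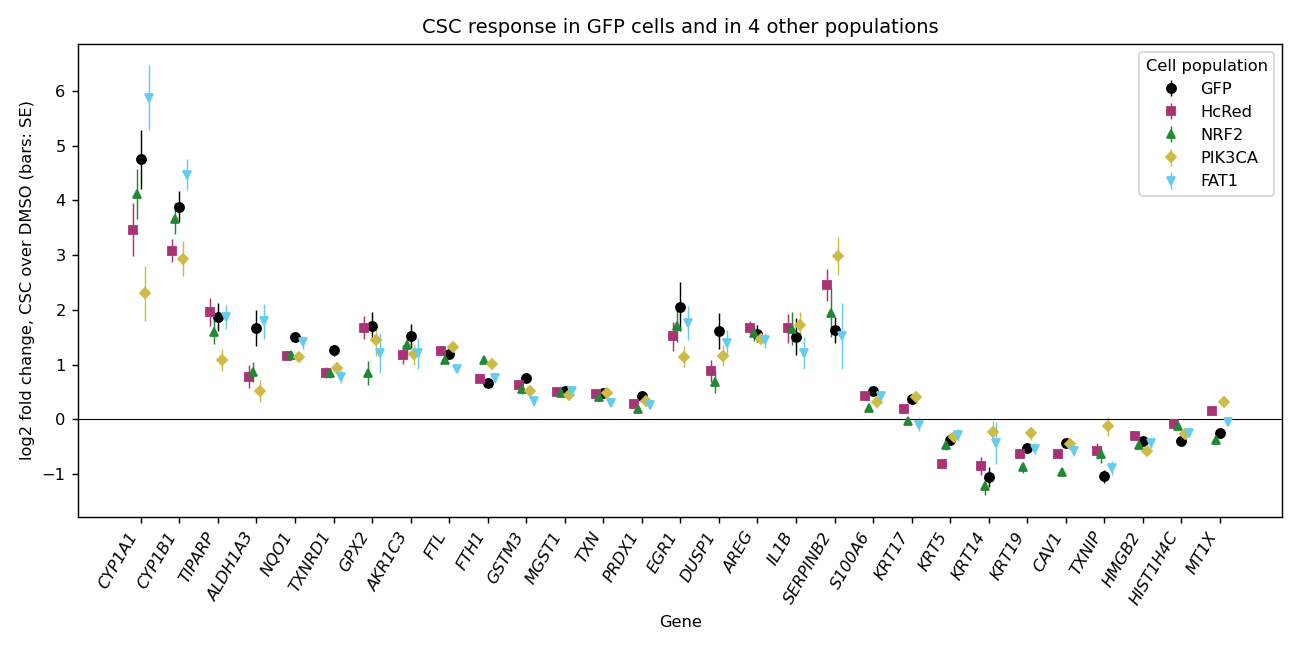
Log2 fold change (CSC against DMSO) with its SE for 29 named genes in GFP, HcRed, NRF2, PIK3CA and FAT1 cells, 3 wells per chemical in each population. CYP1B1 lies between 2.93 and 4.47 in all 5 populations, while KRT17 lies on both sides of 0.

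A difference between populations was tested by an interaction term against the other control population, HcRed, and against FAT1 cells, whose own control is the GFP population. Against HcRed cells, 5 of 11046 genes (0.0453%) had a response that differed, with 557 at an unadjusted p under 0.05, and all 5 responses were lower in GFP cells. The metallothionein MT1X had a log2 fold change of -0.25 in GFP cells and 0.16 in HcRed cells (difference -0.42, SE 0.07, adjusted p = 0.000251), and MT2A had 0.05 and 0.40 (difference -0.35, SE 0.07, adjusted p = 0.00388). TIMP1, an inhibitor of metalloproteinases, had 0.06 in GFP cells and 0.59 in HcRed cells (difference -0.54, SE 0.10, adjusted p = 0.00334). HIST1H4C had -0.40 and -0.08 (difference -0.33, adjusted p = 0.00466), and RPS27, a ribosomal protein gene with near-identical copies, -0.08 and 0.05 (difference -0.15, adjusted p = 0.0354). Without GFP CSC replicate 3 MT1X alone of the 5 passed, and the adjusted p was 0.0597 for MT2A and HIST1H4C, 0.129 for TIMP1 and 0.553 for RPS27. In the DMSO wells TIMP1 stood at 319 ± 7.09 CPM in GFP cells and at 1060 ± 53.5 CPM in HcRed cells (mean ± SD, n = 3 each, scaled over 36 wells). Against FAT1 cells none of 11286 genes (0%) passed, with 612 at an unadjusted p under 0.05, and neither edgeR nor DESeq2 gave a call. The FAT1 wells under CSC were less alike than the GFP wells, and 7 genes passed without FAT1 CSC replicate 1. The nearest was FTL, with a difference of 0.29 (SE 0.07, adjusted p = 0.187).

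GFP cells were also exposed to single tobacco compounds in DMSO, benzo[a]pyrene (BaP, 173 µM) and the nitrosamine NNK (490 µM). The doses of a mixture in mass and of a compound in molarity are not matched and the comparisons share the same DMSO wells, so their values are set side by side without a test of one against another. BaP changed 161 genes (1.51% of those tested) and NNK 87 (0.809%). The NNK wells were less alike than the CSC and DMSO wells, with a chi-square per degree of freedom of 1.991 to 2.493 between pairs. BaP is a polycyclic aromatic hydrocarbon and a ligand of AHR. CYP1A1 averaged 1.54 ± 0.68 CPM under DMSO, 50.0 ± 4.98 under CSC, 43.4 ± 8.52 under BaP and 11.4 ± 2.99 under NNK (mean ± SD, n = 3 each, scaled over 36 wells). CYP1B1 averaged 7.41, 111, 79.5 and 17.5 CPM in the same order. NQO1 averaged 175, 494, 346 and 218 CPM, and FTL 3741, 8551, 9030 and 4794 CPM. The highest level of each P450 and of NQO1 was thus under CSC, and that of FTL under BaP.

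Genes past the threshold under CSC were not all past it under the compounds. FTH1 had a log2 fold change of 0.66 under CSC, 0.22 under BaP (adjusted p = 0.129) and -0.35 under NNK (adjusted p = 0.032). SERPINB2 had 1.63 under CSC, 0.58 under BaP (adjusted p = 0.409) and -0.02 under NNK. TXNIP had -1.04, -0.06 and -0.30. EGR1 had 2.06, 1.76 and 2.17, all against the same DMSO wells, which held 4 counts of it each. KRT14 had -1.06, -1.52 and -0.47. For TXNIP, EGR1 and KRT14 only the folds are given here, not whether they passed under BaP or NNK. BaP and NNK wells each had a plate row of their own too, so these values carry the row with the compound.

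**Figure D5:**
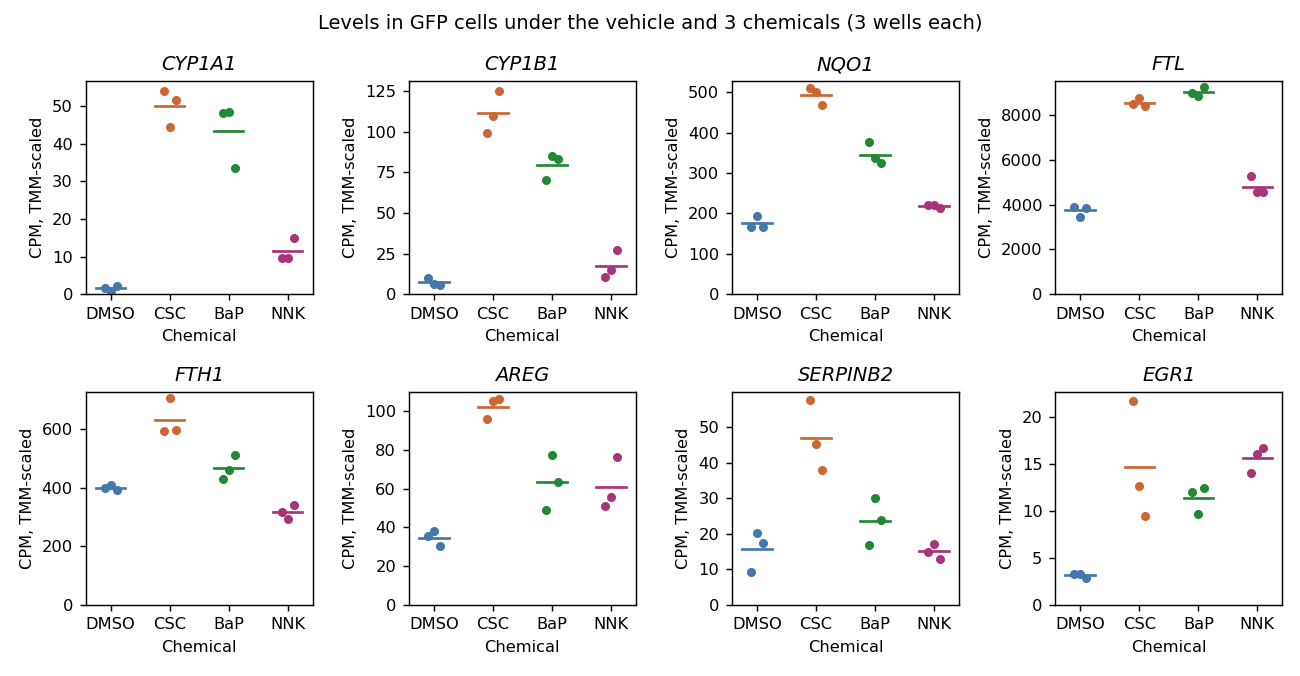
CPM (TMM scaling over 36 wells) of CYP1A1, CYP1B1, NQO1, FTL, FTH1, AREG, SERPINB2 and EGR1 in the GFP wells under DMSO, CSC, BaP and NNK, 3 wells each, with lines at the means. SERPINB2 is at 46.9 CPM on average under CSC and at 15.0 to 23.7 CPM under the other 3, whereas EGR1 is at 11.4 to 15.6 CPM under CSC, BaP and NNK and at 3.15 CPM under DMSO.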

How the data were processed

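The deposited files held raw UMI counts per gene symbol and well, not normalized. Per the labels and the methods of the study, the authors received counts made from 3′DGE (SCRB-seq) reads placed by BWA aln 0.7.10 on RefSeq transcripts of hg19, each UMI adding 1 count to its gene within a well barcode. The 36 wells of 12 groups used here were read, the other 59 were not. Genes with a mean count above 1 were compared in R 4.3.3 with LIMMA 3.58.1 (voom weights, TMM factors from edgeR 4.0.16, Benjamini-Hochberg adjustment over all genes tested, two-sided). Prior degrees of freedom were 53.3 against 4 residual. Interactions of chemical and population used the 12 wells of both populations. Values across chemicals used a TMM scaling over the 36 wells.

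Named were CYP1B1 and NQO1, the genes past the threshold with a mean count of at least 10 and no overlap that had the 12 largest rises and falls or the 6 smallest adjusted p in each direction, list members past the threshold (up to 8 a list), and the genes of each interaction. Members, lists and tests were chosen with earlier results of these data known. Alternatives were edgeR's quasi-likelihood test, DESeq2 1.42.0, limma-trend, other scalings and filters, thinned wells, a replicate block and leaving out each well. Scripts were tested on simulated data. A few genes are not reported here.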

Additional observations from a re-analysis of the deposited data

Results flagged for a closer look

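In 5 genes the CSC response in GFP cells differed from that in HcRed cells by the interaction test, out of 11046 genes tested (0.0453%), each with the lower response in GFP cells. For MT1X the log2 difference was -0.42 (GFP -0.25, HcRed 0.16), for MT2A -0.35 (0.05 and 0.40), for TIMP1 -0.54 (0.06 and 0.59), for HIST1H4C -0.33 (-0.40 and -0.08) and for RPS27 -0.15 (-0.08 and 0.05). The levels over 36 wells were 332 ± 50.4 CPM under CSC and 319 ± 7.09 CPM under DMSO for TIMP1 in GFP cells, and 1588 ± 128 CPM and 1060 ± 53.5 CPM in HcRed cells (mean ± SD, n = 3 each). MT1X averaged 1329 CPM under CSC and 1589 CPM under DMSO in GFP cells, and 1978 CPM and 1800 CPM in HcRed cells. The 2 populations lay in different columns of the plate, so population and position cannot be told apart. Without GFP CSC replicate 3 only MT1X of the 5 passed, and with no filter on low counts none did (797 of 15349 genes at an unadjusted p under 0.05, MT1X at an adjusted p of 0.0507). DESeq2 called MT1X and TIMP1.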

How the results depend on the processing

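No fold change past the threshold reversed. TIMP1, which did not pass (0.06), ranged from -0.05 to 0.18. The 139 calls under CSC became 70 by DESeq2 (which gave no adjusted p for 10206 of 10744 genes under its independent filtering), 47 without that filtering (an alternative added after the data were seen), 60 in a single fit over 5 populations and 92 in thinned wells. Leaving out 1 well gave 83 to 151, the lowest without CSC replicate 3. EdgeR gave 110 calls (102 shared), limma-trend 113, no filter on low counts 196 and a mean count above 10, 125. Of 75 called genes examined singly, 35 kept their call under every alternative that gave them an adjusted p. CYP1A1, CYP1B1, NQO1, FTL, TXN and TXNIP were among them. DESeq2 under its independent filtering gave no adjusted p for CYP1A1, CYP1B1 and TXNIP, and so did not call them. Wells of 1 number deviated from their group means with correlations of 0.0125, 0.0253 and 0.0254, too low to pair them, and the replicate block gave 179 calls (138 shared), although every well correlated best with its own number, a hint from the data and not the design. The difference from HcRed cells numbered 2 genes by DESeq2 with or without its filtering, 2 in the single fit, 11 with median-ratio size factors, 0 without a filter on low counts, 5 with the replicate block and 1 to 15 with 1 well left out. The difference from FAT1 cells numbered 3 genes with the replicate block, 1 in the single fit and 0 to 7 with 1 well left out. The cause of these shifts was not tested. Totals of 893754 to 1364142 counts limit genes at a few CPM to a few molecules a well.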
